A study of Mus musculus with 9 samples.

Results

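Deltex1 (Dtx1) and 5 genes of the Notch pathway, the receptors Notch1, Notch2 and Notch3, the DNA-binding factor Rbpj and the target gene Hes1, were followed in mouse CD8+ T cells given interleukin-15 (IL-15) or interleukin-2 (IL-2). The 6 genes were picked by symbol from 20418 gene symbols in the deposited tables, and Rbpj, which has 3 listed transcripts, was read from the one with most reads on average. Dtx1 was picked because it was lower in every treated library than in the untreated library, so that difference is given as values with no test. The cells were splenic CD8+ T cells of female C57BL/6 mice aged 6 weeks. There were 9 RNA sequencing libraries: IL-15 or IL-2 at 500 nM for 24 h or 4 h, IL-15 or IL-2 at 1 nM for 24 h or 4 h, and untreated cells. Every condition had 1 library, made from a pool of 3 samples treated alike, so no condition was repeated and the labels name no genetic change. The labels give no culture time for the untreated cells, and time in culture and cytokine therefore cannot be told apart in any comparison with that library. The labels also name no sorting step.

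Notch receptors are cut by ADAM and gamma-secretase proteases when they meet a ligand on a neighbouring cell, and the freed intracellular part joins RBPJ and Mastermind proteins to switch on genes such as those of the Hes family. Without it, RBPJ binds corepressors. In CD8+ T cells NOTCH1 and NOTCH2 signalling is known for its part in effector differentiation. Deltex1 is a ubiquitin ligase that binds the intracellular part of Notch, is itself a Notch target in lymphocyte precursors, and is known in mouse T cells as a gene raised in anergy, the unresponsive state, downstream of NFAT. IL-2 and IL-15 share 2 receptor chains and signal through STAT5.

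The promoters of the 3 genes whose levels moved most clearly are shown with matches to the motifs of RBPJ, STAT5 and NFAT, the factors at the end of the Notch, cytokine and calcium pathways. Each window runs from 250 bases before to 50 bases after the start of the RefSeq transcript in GRCm38.p6, and both strands were searched for TGGGAA (RBPJ), TTCNNNGAA (STAT5) and GGAAA (NFAT). Capitals mark a match to any of them. In the Rbpj window the run TTTCCCA is a match to the RBPJ motif and, overlapping it, to the NFAT motif. The windows lie at chr5:120711620-120711919 on the minus strand for Dtx1, chr2:26503773-26504072 on the minus strand for Notch1 and chr5:53590096-53590395 on the plus strand for the more upstream of the 2 Rbpj starts.
Dtx1: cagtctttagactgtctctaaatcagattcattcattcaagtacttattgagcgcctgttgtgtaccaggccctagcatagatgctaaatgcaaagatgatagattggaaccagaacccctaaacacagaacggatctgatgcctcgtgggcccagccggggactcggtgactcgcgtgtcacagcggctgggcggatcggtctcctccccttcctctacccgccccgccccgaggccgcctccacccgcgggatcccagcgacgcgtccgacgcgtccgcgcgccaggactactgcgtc
Notch1: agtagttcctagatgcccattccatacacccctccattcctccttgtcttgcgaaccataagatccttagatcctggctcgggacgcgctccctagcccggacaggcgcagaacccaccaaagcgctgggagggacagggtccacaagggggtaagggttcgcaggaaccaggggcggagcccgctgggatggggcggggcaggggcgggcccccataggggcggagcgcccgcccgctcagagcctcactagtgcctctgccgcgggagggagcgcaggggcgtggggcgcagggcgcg
Rbpj: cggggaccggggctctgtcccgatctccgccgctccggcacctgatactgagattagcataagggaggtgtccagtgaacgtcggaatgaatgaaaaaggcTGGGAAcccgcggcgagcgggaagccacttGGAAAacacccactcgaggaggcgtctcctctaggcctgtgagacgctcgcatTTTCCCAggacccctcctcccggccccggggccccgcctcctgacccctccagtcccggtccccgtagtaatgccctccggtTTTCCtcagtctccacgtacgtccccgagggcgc

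The Dtx1 and Notch1 windows held none of the 3 motifs. The upstream Rbpj window held 2 RBPJ matches, which begin at positions -149 and -65 from the start, and 3 NFAT matches, at -119, -66 and 17. Of all 32544 promoter windows in the table, 25.4% held the RBPJ motif, 8.33% the STAT5 motif and 61.5% the NFAT motif. The window of Notch2 held 2 NFAT matches and that of Notch3 held 1 STAT5 match. RefSeq windows were matched for 5 of the 6 genes, Hes1 being named only. A match is a description of these letters, and no factor's binding was measured here.

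Levels are given as CPM, counts per 1000000 of the library size after scaling between libraries, and changes come from edgeR's quasi-likelihood fit over all 9 libraries and 13479 genes, with p-values adjusted by Benjamini-Hochberg within each comparison. The 9 libraries held 27158143 to 48799962 counts, and intervals on single levels cover counting error only. With no repeated condition, the error of a fitted change rests on the scatter left after cytokine, dose and time were fitted, so p-values measure how well 4 libraries against 4 kept to a common change. The defining genes of CD8+ T cells were high in every library, with Cd8b1 between 1011 and 1957 CPM in treated libraries and at 1615 CPM in the untreated library. Transcripts of other cells were present too. B cell markers summed to 747 to 2967 CPM in treated libraries and 3111 CPM in the untreated library, and myeloid markers to 27.6 to 607 CPM and 1126 CPM.

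Dtx1 was lower in all 8 treated libraries than in untreated cells. At 500 nM it stood at 24.7 CPM with IL-15 for 24 h, 16.6 CPM with IL-2 for 24 h, 27.9 CPM with IL-15 for 4 h and 22.85 CPM with IL-2 for 4 h. At 1 nM it stood at 90.15 CPM with IL-15 for 24 h, 59.4 CPM with IL-2 for 24 h, 34.2 CPM with IL-15 for 4 h and 38.6 CPM with IL-2 for 4 h. The untreated library held 534 CPM, from 16528 reads. No treated value came near it, the treated levels being 5.92-fold (IL-15 at 1 nM for 24 h) to 32.1-fold (IL-2 at 500 nM for 24 h) lower than in the untreated library. On the deposited RPKM scale, which divides by exon length, Dtx1 was at 3.13 to 17.1 RPKM in treated libraries and at 92.6 RPKM in the untreated library, where it ranked 596 of 12960 genes with reads.

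**Figure D1:**
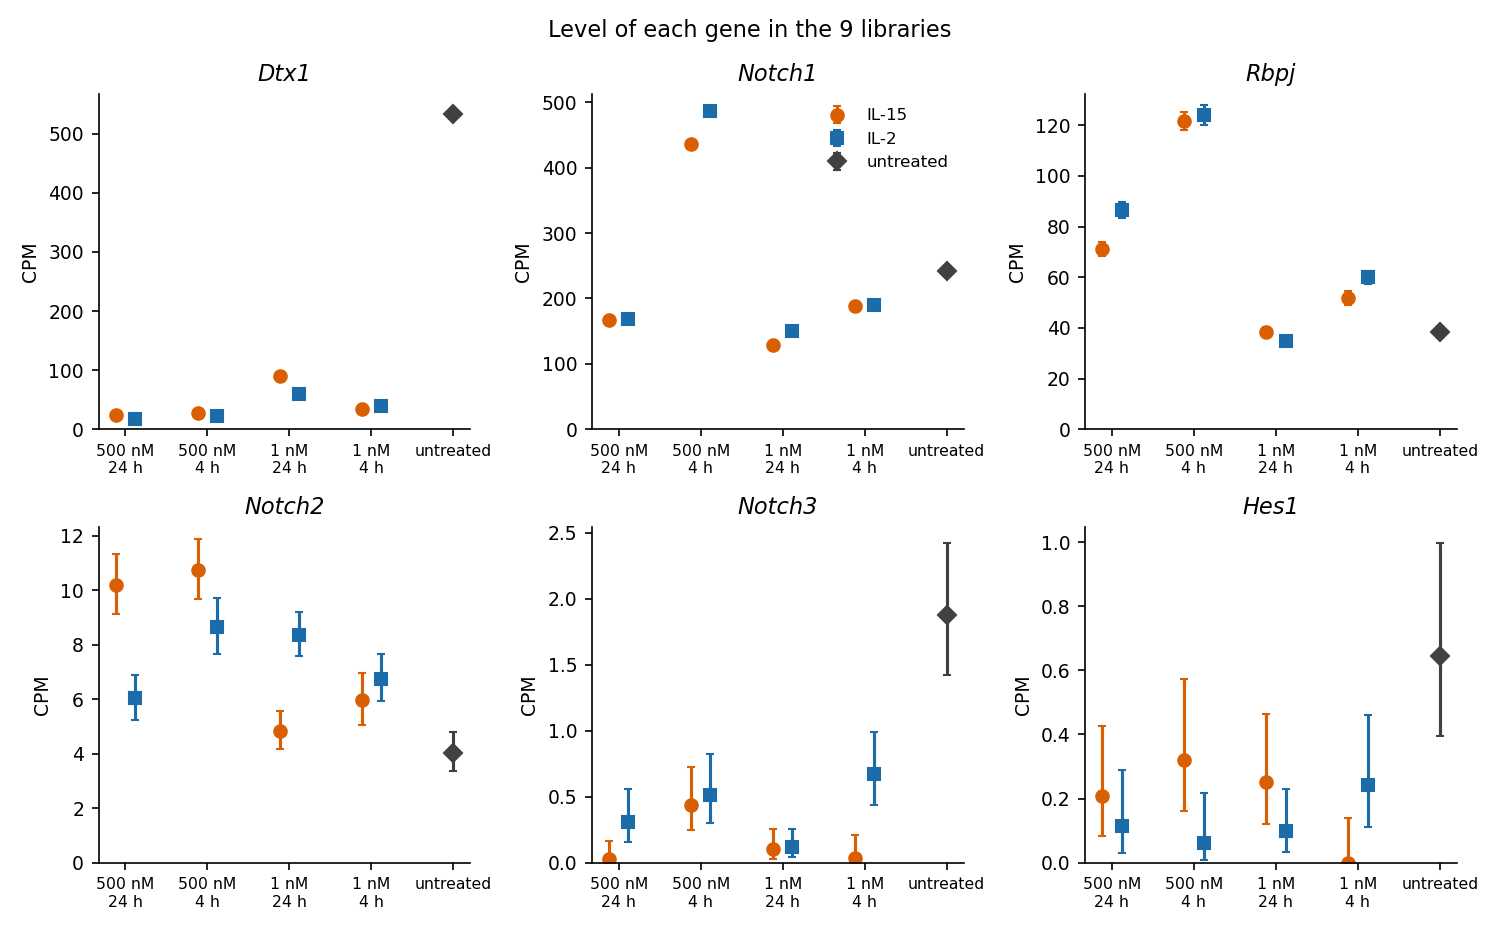
Level of each of the 6 genes in CPM (linear axis from 0) in each of the 9 libraries, with dose and time along the bottom, IL-15 as orange circles, IL-2 as blue squares and the untreated library as a grey diamond; bars are exact 95% counting intervals. Dtx1 is 16.6 to 90.15 CPM in treated libraries and 534 CPM in the untreated library, Notch1 is highest at 500 nM for 4 h (436 and 487 CPM), and Rbpj is higher at 500 nM than at 1 nM at both times.

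As fitted, the log2 difference of Dtx1 from untreated was -4.52 at 500 nM and -3.32 at 1 nM, given with no test. Among 9772 genes with a mean of at least 100 counts, 32 had a more negative value than Dtx1 at 500 nM and 13 at 1 nM. Over all genes, edgeR called 6.28% at 500 nM and 0.0742% at 1 nM against untreated, and nothing is read from this for Dtx1, which was picked on that difference. All comparisons with untreated share the 1 untreated library, so any error in its Dtx1 count enters each of them. In bulk RNA, fewer cells that carry a transcript and less of it per cell cannot be told apart.

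Among the treated libraries, whose differences from each other were not the ground for picking Dtx1, its level fell with dose at 24 h. The 500 nM libraries at 24 h held 24.7 (IL-15) and 16.6 (IL-2) CPM, against 90.15 and 59.4 CPM in the 1 nM libraries at 24 h. Both 500 nM values lay below both 1 nM values, at 0.274 of the 1 nM level for IL-15 and 0.280 for IL-2. The change was -1.85 ± 0.22 on the log2 scale (SE; adjusted p = 9.3e-05 in edgeR's quasi-likelihood test, 2 libraries against 2), and 31.2% of all genes were called in this comparison, 15.6% of all genes as lower. Leaving out any 1 treated library kept the call, with changes between -2.03 and -1.63.

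At 4 h the drop with dose was smaller. Dtx1 held 27.9 (IL-15) and 22.85 (IL-2) CPM at 500 nM, against 34.2 and 38.6 CPM at 1 nM. The 500 nM values were again both below the 1 nM values, but the log2 change of -0.55 ± 0.22 did not pass (adjusted p = 0.15 in edgeR, where 10.1% of all genes were called), and its 95% interval ran from -1.02 to -0.08. Without the IL-15 library of 1 nM at 4 h it was -0.85 and did pass (adjusted p = 0.046). The change with dose was more negative at 24 h than at 4 h by 1.31 ± 0.30, a dose by time difference of -1.31 on the log2 scale that passed the test (adjusted p = 0.022 in edgeR, against 8.81% of all genes called). Leaving out 1 library ended that call for 6 of the 8, all except the 1 nM IL-2 libraries of 24 h and 4 h, with adjusted p from 0.055 to 0.14 and differences from -1.48 to -1.0.

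Over both times the change of Dtx1 with dose was -1.20 ± 0.28 (adjusted p = 0.023 in edgeR, lower at 500 nM in 4 of 4 matched pairs), in a comparison that called 16.1% of all genes. That average depended on the 24 h libraries. Without both 1 nM libraries of 24 h it was -0.52 with an adjusted p of 0.15. Only the 4 h libraries then compare the doses, so this cannot single out the 1 nM libraries. Leaving out any 1 of 5 single libraries also ended the call, with changes of -1.28 to -0.94 and an adjusted p of 0.059 to 0.089. Those 5 were both 24 h libraries at 1 nM, both 24 h libraries at 500 nM and the IL-2 library of 1 nM at 4 h.

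With time, the Dtx1 values ran in opposite senses at the 2 doses. At 500 nM its 24 h level was 0.884 (IL-15) and 0.727 (IL-2) of its 4 h level, and at 1 nM it was 2.63 and 1.54 of it. Averaged over dose, the difference of 24 h against 4 h was 0.34 ± 0.28 on the log2 scale and did not pass (adjusted p = 0.49 in edgeR, with 5.30% of all genes called). The highest treated level, with IL-15 at 1 nM for 24 h, was still 0.169 of the untreated level.

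IL-15 and IL-2 did not differ in Dtx1 beyond the scatter left by the fit. The ratio of IL-15 to IL-2 was 1.49 at 500 nM for 24 h, 1.22 at 500 nM for 4 h, 1.52 at 1 nM for 24 h and 0.888 at 1 nM for 4 h. IL-15 was thus higher in 3 of 4 pairs, with a mean log2 difference of 0.35 ± 0.28 and a 95% interval from -0.27 to 0.97 (adjusted p = 1 in edgeR). In each of the 4 pairs the counting interval of the ratio left out 1, but that interval covers counting error only. No gene of 13479 was called between the cytokines (0.00%), 125 were at an unadjusted p under 0.05, and DESeq2 called 2 and limma-voom 0. The tests of cytokine by dose and of cytokine by time gave Dtx1 differences of 0.10 ± 0.59 and 0.48 ± 0.57, and neither called any gene (0.00% each).

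**Figure D2:**
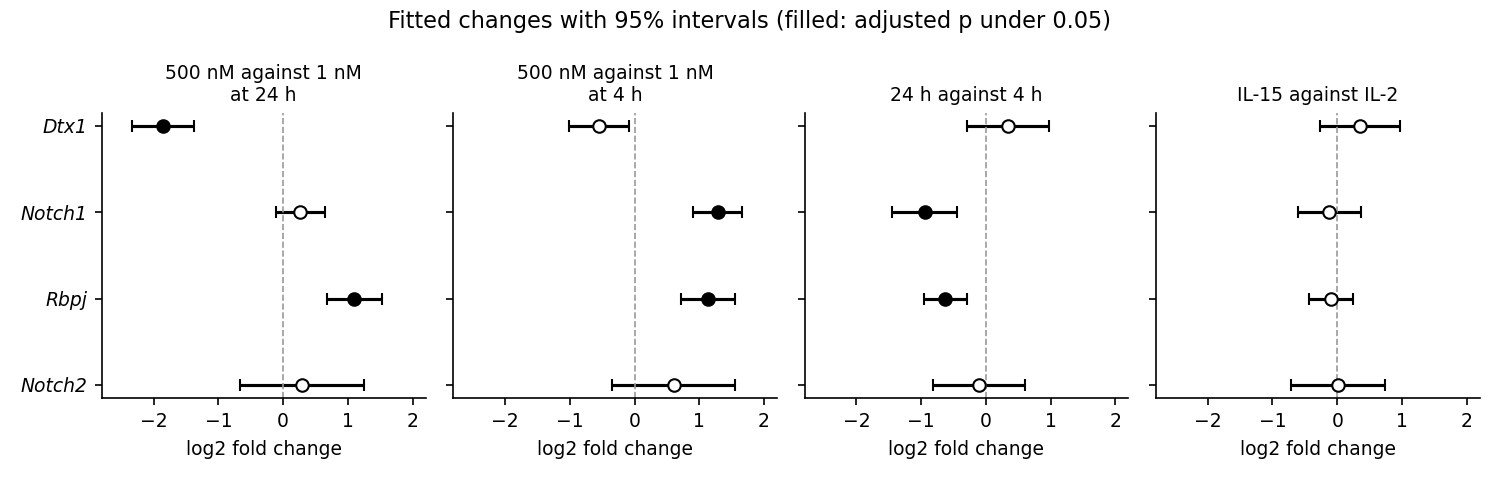
Fitted log2 changes of Dtx1, Notch1, Rbpj and Notch2 for 4 comparisons, with 95% intervals as bars and filled points where the adjusted p is under 0.05. Dtx1 is lower at 500 nM at 24 h (-1.85), Notch1 is higher at 500 nM at 4 h (1.29), Rbpj is higher at both times (1.10 and 1.14), and all 4 intervals for IL-15 against IL-2 include 0.

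Markers of other cells moved in the same libraries as Dtx1. Myeloid markers (12 genes, such as the growth factor receptor gene Csf1r and the complement gene C1qa) summed to 27.6 and 32.4 CPM at 500 nM for 24 h, 138 and 156 CPM at 500 nM for 4 h, 607 and 503 CPM at 1 nM for 24 h, 208 and 217 CPM at 1 nM for 4 h, and 1126 CPM in untreated cells, with IL-15 given before IL-2. Like the Dtx1 level averaged over both cytokines, the sum was highest in the untreated library, next highest at 1 nM for 24 h and lowest at 500 nM for 24 h. Its members did not all keep that order. Csf1r and C1qa were highest in the untreated library. Lyz2, named after its values were seen, stood at 217 and 138 CPM at 1 nM for 24 h and 20.9 CPM in untreated cells. Cd68 stood at 41.7 and 38.6 CPM at 1 nM for 24 h and 21.1 CPM in untreated cells. Of the 11 myeloid genes tested, 9 fell and 0 rose with dose at 24 h, with a median log2 change of -4.17 against -0.04 over all genes. That is 81.8% called beside 31.2% of all genes. Itgam and S100a9 did not pass. Itgam, named after its values were seen, was at 0.855 (IL-15) and 0.930 (IL-2) CPM at 1 nM for 24 h, at no more than 0.0584 CPM in the other treated libraries and at 1.03 CPM in untreated cells, while S100a8 and S100a9 were at or under 0.350 CPM in every library. Csf1r stood at 1.10 to 41.3 CPM in treated libraries and 338 CPM in the untreated library.

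B cell markers (14 genes) moved less. They summed to 840 and 747 CPM at 500 nM for 24 h, 2655 and 2275 CPM at 500 nM for 4 h, 1989 and 2297 CPM at 1 nM for 24 h, 2836 and 2967 CPM at 1 nM for 4 h, and 3111 CPM in untreated cells. Only the 500 nM libraries of 24 h stood well below the rest, where 13 of 14 genes fell with dose, among them the B cell receptor genes Cd79a and Cd79b, with a median of -1.40 (92.9% called beside 31.2% of all genes). Pax5 was at or near 0 throughout. Most of the B cell sum came from Cd74, H2-Ab1 and H2-Aa, at 1181, 796.5 and 345 CPM in untreated cells. At 1 nM the sum was lower at 24 h than at 4 h, but Cd79a and Cd79b were higher. Cd79a stood at 261 (IL-15) and 298 (IL-2) CPM at 1 nM for 24 h, against 181 and 165 CPM at 1 nM for 4 h. Cd79b stood at 202 and 203 CPM, against 133 and 125 CPM. Marginal zone B cell markers, a group in which Dtx1 itself is known to be expressed in mice, summed to 54.9 to 174 CPM in treated libraries and 104 CPM in the untreated library, and 4 of 7 fell with dose at 24 h (57.1% called beside 31.2%). Cd9 and Cd1d1 gave 35.5 and 32.0 CPM of the untreated sum. Cr2 alone of these markers was highest in untreated cells, at 8.14 CPM against 0.504 to 5.76 CPM in treated libraries. Cd9 and Cr2 were named after their values were seen. Erythroid markers summed to 8.10 to 107.5 CPM in treated libraries and 176 CPM in the untreated library, NK cell markers to 20.2 to 83.0 and 189 CPM, and CD4+ and regulatory T cell markers to 34.65 to 60.3 and 45.55 CPM. Dendritic cell markers summed to 44.2 to 125 CPM in treated libraries and 132 CPM in the untreated library, but their members moved apart. At 500 nM against untreated, 3 of 8 were lower and 1 was higher (6.28% of all genes were called in either direction), with a median log2 difference of -3.30. Itgax was at 1.37 to 14.3 CPM in treated libraries and 47.2 CPM in the untreated library, and Flt3 at 0.326 to 6.59 and 24.5 CPM. Bst2, an interferon-induced gene, made up much of the treated sum, at 10.3 to 88.0 CPM in treated libraries and 16.05 CPM in the untreated library.

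T cell identity genes (12 genes) summed to 4299 to 6800 CPM in treated libraries and 7172 CPM in the untreated library. Per unit of that sum, Dtx1 was 0.00298 to 0.0133 in treated libraries and 0.0744 in the untreated library. Per unit of the B cell sum it was 0.0100 to 0.0453 in treated libraries and 0.1715 in the untreated library. On these scales the untreated library was the highest. Per unit of the myeloid sum it was not: Dtx1 was then 0.895 (IL-15) and 0.512 (IL-2) at 500 nM for 24 h, 0.202 and 0.146 at 500 nM for 4 h, 0.1485 and 0.118 at 1 nM for 24 h, 0.165 and 0.1775 at 1 nM for 4 h, and 0.474 in untreated cells. On that scale the 500 nM libraries of 24 h stood above the untreated library and above the 1 nM libraries of 24 h, whereas by level they were the lowest of these. Both the myeloid and the B cell sum mix genes that ran differently, so these scales describe the sums only. The part of the myeloid and other marker changes in the Dtx1 difference was not tested.

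**Figure D3:**
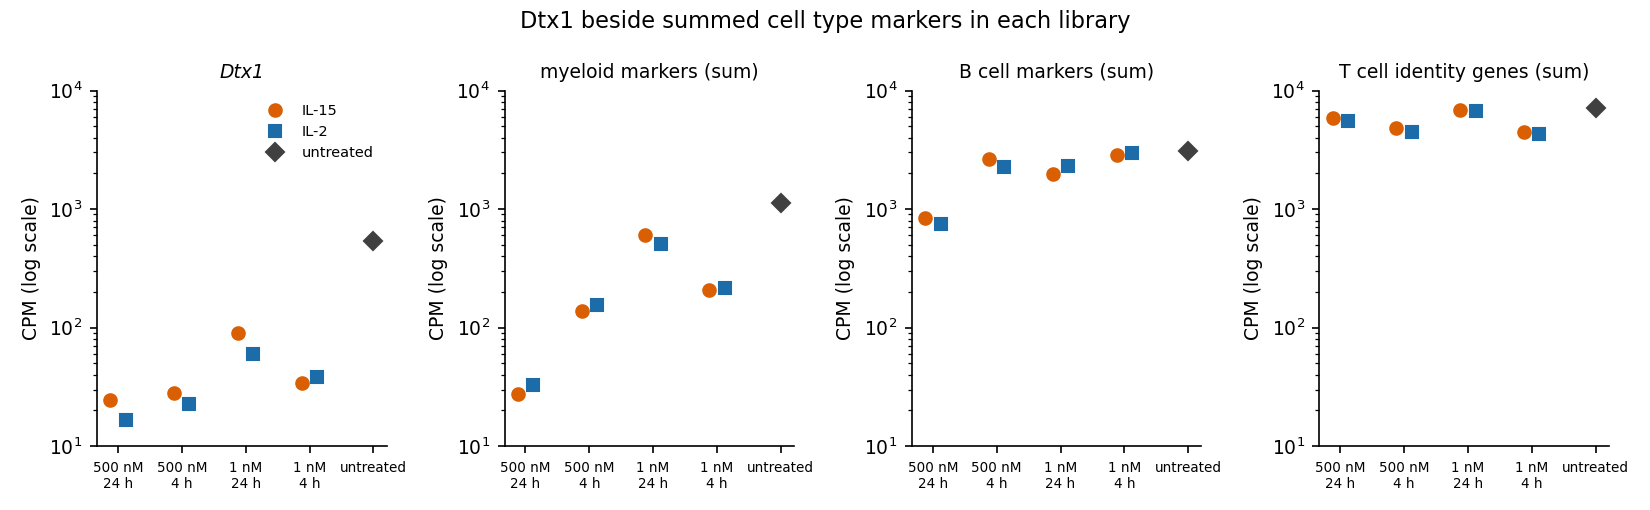
Dtx1 and the summed levels of myeloid markers, B cell markers and T cell identity genes in each library, in CPM on a shared log axis, with dose and time along the bottom; IL-15 orange circles, IL-2 blue squares, untreated grey diamond. Dtx1 spans 16.6 to 534 CPM and the myeloid sum 27.6 to 1126 CPM, both highest in the untreated library and next highest at 1 nM for 24 h, while the T cell sum spans 4299 to 7172 CPM.

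The 8 genes whose log2 CPM followed Dtx1 most closely over the 9 libraries, among 9643 genes with a mean of at least 50 counts, were Tln1, Unc93b1, Naaa, Laptm5, Creg1, Gsn, Man2b1 and Fgd2. Their Pearson correlations with Dtx1 were 0.983 for Tln1 to 0.956 for Fgd2, and the next gene reached 0.952. These are descriptions over 9 libraries that share their scaling and a single high untreated point. Naaa, a lysosomal amidase gene, stood at 9.83 to 33.4 CPM in treated libraries and 281 CPM in the untreated library. Creg1 stood at 53.0 to 186 CPM and 446 CPM, and Fgd2 at 2.95 to 14.96 CPM and 88.75 CPM. Talin1 (Tln1), which links integrins to actin, stood at 230 to 350 CPM and 517 CPM. Over the 8 treated libraries alone, only 1 of these 8 genes remained among the 8 most alike, although their correlations there were 0.831 (Man2b1) to 0.967 (Laptm5).

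Notch1 carried nearly all of the measured receptor transcript. Per exon length it made up 94.0% to 98.3% of the summed RPKM of the 4 Notch receptors in treated libraries and 97.3% in the untreated library. Notch1 itself stood at 9.61 to 34.55 RPKM in treated libraries and 16.4 RPKM in the untreated library. Notch2 was at 0.325 to 0.693 RPKM and 0.248 RPKM, and Notch3 and Notch4 were at or under 0.189 RPKM in every library.

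Notch1 rose with dose at 4 h. It stood at 436 (IL-15) and 487 (IL-2) CPM at 500 nM for 4 h, against 188 and 190 CPM at 1 nM for 4 h. The groups did not overlap, the 500 nM level being 2.32 and 2.56 times the 1 nM level. The change was 1.29 ± 0.17 on the log2 scale (adjusted p = 0.00061 in edgeR, 2 libraries against 2), and it passed without any 1 of the 8 treated libraries. In this comparison 10.1% of all genes were called. At 24 h, Notch1 stood at 167 (IL-15) and 169 (IL-2) CPM at 500 nM, against 129 and 150.5 CPM at 1 nM. That change, 0.27 ± 0.17, did not pass (adjusted p = 0.27 in edgeR), and its 95% interval was -0.10 to 0.64.

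The high Notch1 level was thus found in the 2 libraries of 500 nM at 4 h. The change with dose was smaller at 24 h than at 4 h, with a dose by time difference of -1.02 ± 0.24 (adjusted p = 0.024 in edgeR). Averaged over time, dose changed Notch1 by 0.78 ± 0.22 (adjusted p = 0.044, higher in 4 of 4 pairs), and 24 h against 4 h by -0.95 ± 0.22 (adjusted p = 0.045, lower in 4 of 4 pairs), both in edgeR. These 3 calls lay close to the threshold. The dose by time call was lost without any 1 library other than IL-15 at 1 nM for 24 h, with adjusted p of 0.050 to 0.20. The dose call was lost without any except the 24 h IL-2 libraries of either dose (0.064 to 0.14), and the time call without any except the 1 nM IL-15 libraries of either time (0.052 to 0.19).

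Against untreated cells, at 242 CPM, Notch1 was higher in both libraries of 500 nM at 4 h and lower in the other 6. Its fitted difference from untreated was 0.22 ± 0.35 at 500 nM and -0.55 ± 0.33 at 1 nM, and neither passed (adjusted p = 0.74 and 0.56 in edgeR, with 6.28% and 0.0742% of all genes called). Without both 1 nM libraries of 24 h the fitted 1 nM difference was -1.10. That fit takes the missing 1 nM level at 24 h from the time change at 500 nM. The 1 nM libraries it kept, those of 4 h, were at -0.36 (IL-15) and -0.35 (IL-2) from untreated on the log2 scale. Nothing is therefore read from that fitted value for Notch1 at 1 nM. IL-15 and IL-2 differed by -0.12 ± 0.22, IL-15 being lower in 4 of 4 pairs by ratios of 0.858 to 0.989 (adjusted p = 1 in edgeR).

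The 4 genes most like Notch1 over the 9 libraries were Zfp1, Vasp, Nfkbiz and Tspan9, with Pearson correlations of 0.966 to 0.956. Nfkbiz, an inducible regulator of NF-kappaB target genes, stood at 193 (IL-15) and 164 (IL-2) CPM at 500 nM for 4 h and at 51.6 CPM in untreated cells. None of the 4 was among the 4 most alike in the treated libraries alone, although their correlations there were 0.956 to 0.966.

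Notch2 was low and did not pass in any comparison. At 500 nM it stood at 10.2 CPM with IL-15 for 24 h, 6.04 CPM with IL-2 for 24 h, 10.7 CPM with IL-15 for 4 h and 8.64 CPM with IL-2 for 4 h. At 1 nM it stood at 4.83, 8.35, 5.96 and 6.76 CPM in the same order, and in untreated cells at 4.04 CPM, from 125 reads. All 8 treated values were above the untreated one, and the doses overlapped. The fitted difference from untreated was 1.14 ± 0.54 at 500 nM (adjusted p = 0.23 in edgeR), and the change with dose 0.45 ± 0.32 (adjusted p = 0.37), with a 95% interval of -0.27 to 1.17. The ratio of IL-15 to IL-2 was above 1 at 500 nM (1.69 at 24 h and 1.24 at 4 h) and below 1 at 1 nM (0.578 and 0.883). That cytokine by dose difference was 1.02 ± 0.58 and did not pass (adjusted p = 1 in edgeR). Among the genes most like Notch2 were Sep15, Hmgn3 and Ifi47, with Pearson correlations of 0.936, 0.916 and 0.911 over the 9 libraries, and of 0.896, 0.919 and 0.855 over the 8 treated ones.

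Notch3 was close to the limit of counting. At 500 nM it had 1 read with IL-15 for 24 h, 11 with IL-2 for 24 h, 15 with IL-15 for 4 h and 17 with IL-2 for 4 h. At 1 nM it had 4, 6, 1 and 25 reads in the same order, and 58 in untreated cells, where it stood at 1.87 CPM. The untreated library held the most. In 5 of the 12 matched pairs of treated libraries the counting interval of the ratio left out 1, among them IL-15 over IL-2 at 1 nM for 4 h (ratio 0.0561, 95% interval 0.00137 to 0.343). These intervals cover counting error only, and no comparison of Notch3 passed in edgeR. Notch3 and Hes1 entered the test because the filter kept a gene with about 10 reads in a single library, and Notch3 reached 10 reads in 5 libraries. Notch4, which was not among the 6 genes, had 0 to 65 reads per treated library and 18 in the untreated library.

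Rbpj rose with dose at both times. At 500 nM it stood at 71.2 CPM with IL-15 for 24 h, 86.5 CPM with IL-2 for 24 h, 122 CPM with IL-15 for 4 h and 124 CPM with IL-2 for 4 h. At 1 nM it stood at 38.3 CPM with IL-15 for 24 h, 34.9 CPM with IL-2 for 24 h, 51.9 CPM with IL-15 for 4 h and 59.9 CPM with IL-2 for 4 h. Every 500 nM library lay above every 1 nM library, the matched ratios being 1.86 to 2.48. The change with dose was 1.12 ± 0.15 on the log2 scale (adjusted p = 0.0027 in edgeR), with 1.10 ± 0.19 at 24 h (adjusted p = 0.0011) and 1.14 ± 0.19 at 4 h (adjusted p = 0.0025). Each of these 3 calls held without any 1 treated library. The comparisons called 16.1% of all genes over both times, 31.2% at 24 h and 10.1% at 4 h. How many of all genes separate fully by dose was not counted. The dose by time difference was -0.04 ± 0.27, with a 95% interval of -0.63 to 0.55.

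Rbpj was lower at 24 h than at 4 h in 4 of 4 pairs, by -0.62 ± 0.15 (adjusted p = 0.047 in edgeR). This call was close to the threshold and was lost without any 1 library other than the 1 nM IL-15 libraries, with adjusted p of 0.11 to 0.21. In untreated cells Rbpj stood at 38.35 CPM, close to both 1 nM libraries of 24 h and below the other 6. At 500 nM it was higher than in untreated cells by 1.36 ± 0.26 (adjusted p = 0.021 in edgeR, higher in 4 of 4 libraries). That call ended without the IL-2 library of 500 nM at 24 h (adjusted p = 0.054). At 1 nM the difference was 0.24 ± 0.24 (adjusted p = 0.73). Read by time, the difference from untreated was 0.49 ± 0.24 at 24 h and 1.11 ± 0.26 at 4 h, and neither passed (adjusted p = 0.34 and 0.061 in edgeR, with 0.341% and 2.43% of all genes called). IL-15 and IL-2 differed by -0.09 ± 0.15, with a 95% interval of -0.43 to 0.24.

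The annotation lists 3 Rbpj pseudogenes, and how reads that match several places were counted is not given, so part of the Rbpj count may be theirs. The 4 genes most like Rbpj were Gfpt1, Chac1, Ogdh and Slamf1, with Pearson correlations of 0.978 to 0.976, 3 of which were also among the 4 most alike in the treated libraries alone. Gfpt1, the entry enzyme of the hexosamine pathway, stood at 31.1 to 44.9 CPM at 500 nM, 14.2 to 26.2 CPM at 1 nM and 13.6 CPM in untreated cells.

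Hes1, the classical Notch target, was at the limit of counting throughout. At 500 nM it had 7 reads with IL-15 for 24 h, 4 with IL-2 for 24 h, 11 with IL-15 for 4 h and 2 with IL-2 for 4 h. At 1 nM it had 10, 5, 0 and 9 reads in the same order, and 20 in untreated cells, or 0.646 CPM. The value of 0 allows up to 0.113 CPM at 3 reads, and 9 of the 12 matched pairs of treated libraries had reads on both sides. In 1 of these 9, IL-15 over IL-2 at 500 nM for 4 h, the counting interval of the ratio left out 1 (ratio 5.30, 95% interval 1.16 to 49.2). That interval covers counting error only, and no comparison of Hes1 passed in edgeR, and its untreated level had a 95% counting interval of 0.394 to 0.997 CPM.

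The wider pathway was read from 8 lists of ligands, receptors, processing enzymes and nuclear factors, which hold 69 genes besides the 6, 64 of them tested. With dose at 24 h, 6 rose, 21 fell and 37 did not pass, which is 42.2% called beside 31.2% of all genes, with a median log2 change of -0.55 beside -0.04. With dose at 4 h, 5 rose, 2 fell and 57 did not pass, which is 10.9% beside 10.1%, with a median of -0.03 beside -0.02. At 4 h the share and the median were thus near those of all genes. The 5 that rose were Furin, Dtx3l, Tle3, Myc and Cdkn1a, and the 2 that fell were Mfng and Mib2. Furin and Tle3, with changes of 1.40 ± 0.40 and 1.33 ± 0.20, were named after their values were seen.

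**Figure D4:**
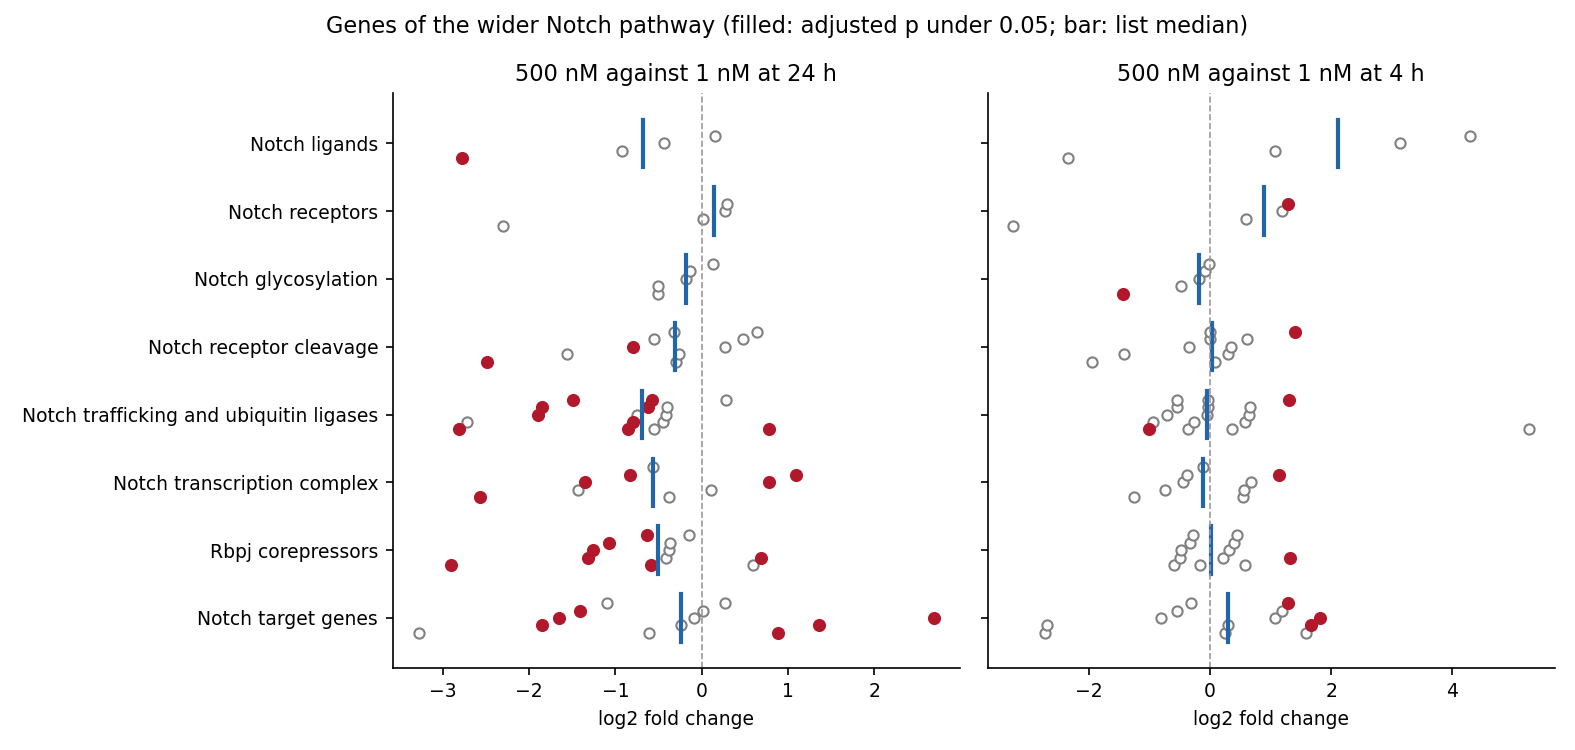
Fitted log2 changes with dose at 24 h (left) and at 4 h (right) for every tested gene of the 8 Notch pathway lists, the 6 genes included; filled red points passed an adjusted p of 0.05, open points did not, and blue bars mark each list's median. Passed genes lie mostly to the left at 24 h in the ubiquitin ligase and corepressor lists.

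Of the ligands, 4 of 6 were tested. Jag2, which encodes a Notch ligand on the cell surface, stood at 2.61 and 0.992 CPM at 500 nM for 24 h, 0.233 and 2.73 CPM at 500 nM for 4 h, 14.2 and 11.04 CPM at 1 nM for 24 h, 6.42 and 7.64 CPM at 1 nM for 4 h, and 4.46 CPM in untreated cells, with IL-15 given before IL-2. It fell with dose by 2.57 on the log2 scale (SE 0.65, adjusted p = 0.030 in edgeR) and was lowest in the 500 nM libraries. Dll1, named after its values were seen, stood at 28.8 and 11 CPM at 500 nM for 4 h, at no more than 2.72 CPM in the other treated libraries and at 0.517 CPM in untreated cells. Its change with dose at 4 h, 3.14 ± 1.02, did not pass (adjusted p = 0.077). Dll3 had no read in any library.

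Of 10 genes of receptor cleavage, 2 fell and 0 rose with dose, or 20.0% called, near the 16.1% of all genes. They were Aph1c and Aph1b, near-identical copies of a gamma-secretase subunit gene between which reads may be split, so both are uncertain. At 24 h the fall of Aph1c was 2.49 on the log2 scale (SE 0.71, adjusted p = 0.018 in edgeR), and levels were at most 7.87 CPM in any library. Of 5 glycosylation genes, the Fringe enzymes that modify Notch receptors moved. Mfng stood at 68.9 and 143 CPM at 500 nM for 4 h, against 301 and 262 CPM at 1 nM for 4 h. It fell with dose at 4 h by 1.43 on the log2 scale (SE 0.29, adjusted p = 0.0066 in edgeR). Lfng and Rfng were higher at 24 h than at 4 h, by 0.87 ± 0.20 and 0.77 ± 0.17 (adjusted p = 0.041 and 0.039).

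The ubiquitin ligase and trafficking list held Dtx1 and its relatives. With dose at 24 h, 8 of its 16 genes fell and 1 rose, or 56.2% called beside 31.2% of all genes, and the 8 were Dtx1, Dtx2, Dtx3, Dtx4, Itch, Mib2, Aak1 and Dvl1. With dose at 4 h, 12.5% of the list was called beside 10.1% of all genes, and over both times 18.8% beside 16.1%, both near the background. Mib2, a ubiquitin ligase that acts on Notch ligands, stood at 22.6 and 21.5 CPM at 500 nM for 24 h, 38.7 and 39.15 CPM at 500 nM for 4 h, 91.5 and 73.7 CPM at 1 nM for 24 h, 84.2 and 72.6 CPM at 1 nM for 4 h, and 57.95 CPM in untreated cells. Every 500 nM library was below every other library, with a change of -1.90 ± 0.20 at 24 h (adjusted p = 4.8e-05 in edgeR). Dtx3l, a Deltex relative known for its part in interferon responses and DNA repair with PARP9, went the other way. It stood at 263 and 179 CPM at 500 nM for 24 h, 541 and 458 CPM at 500 nM for 4 h, 120 and 132 CPM at 1 nM for 24 h, 232 and 173 CPM at 1 nM for 4 h, and 128 CPM in untreated cells. Dtx3l rose with dose by 1.05 ± 0.19 (adjusted p = 0.0074 in edgeR) and was lower at 24 h than at 4 h by -0.93 ± 0.19 (adjusted p = 0.029). Unlike Dtx1, none of its relatives stood far above the treated libraries in untreated cells. Dtx2 was at 42.25 to 87.7 CPM in treated libraries and 77.0 CPM in the untreated library, Dtx3 at 7.27 to 26.0 and 19.8 CPM, and Dtx4 at 3.34 to 30.2 and 6.07 CPM.

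In the transcription complex list, where Rbpj belongs, 2 of 9 genes rose and 2 fell with dose, or 44.4% called beside 16.1% of all genes. Kat2a, a histone acetyltransferase gene, rose by 0.66 ± 0.18 (adjusted p = 0.037 in edgeR). Maml1 and Maml3, genes of the Mastermind coactivators that bind Notch and RBPJ, fell by 0.89 (SE 0.22, adjusted p = 0.027) and by 1.92 (SE 0.43, adjusted p = 0.019) on the log2 scale. Maml1 stood at 47.8 and 39.1 CPM at 500 nM for 24 h, against 126.5 and 95.4 CPM at 1 nM for 24 h. Rbpj and Maml1 thus moved in opposite senses with dose. Of 12 corepressor genes, 8.33% were called with dose at 4 h, beside 10.1% of all genes. With dose at 24 h, 6 fell and 1 rose, or 58.3% called beside 31.2% of all genes. Cir1 fell by 1.26 (SE 0.24, adjusted p = 0.0016 in edgeR), and the histone deacetylase gene Hdac1 rose by 0.69 ± 0.18 (adjusted p = 0.011).

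Among 16 genes listed as Notch targets, 13 were tested, of which 4 rose and 2 fell with dose, or 46.2% called beside 16.1% of all genes. Besides Hes1, several classical targets were low: Hes5 was at 0 to 2.04 CPM in treated libraries and 4.91 CPM in the untreated library, Hey1 at 0 to 1.69 and 2.16 CPM, and Hey2 and Heyl had no read. Those that rose with dose, besides Notch1, were Il2ra, Myc and Cdkn1a, of which Il2ra and Myc are also well known targets of IL-2 signalling. Myc stood at 674 and 779 CPM at 500 nM for 24 h, 1169 and 1091 CPM at 500 nM for 4 h, 255 and 310 CPM at 1 nM for 24 h, 356 and 286 CPM at 1 nM for 4 h, and 457 CPM in untreated cells. It rose with dose by 1.59 ± 0.18 (adjusted p = 0.0014 in edgeR), and every 500 nM library lay above every other library. Il2ra, the alpha chain of the IL-2 receptor, was at 35.9 to 88.8 CPM at 500 nM, 2.57 to 24.4 CPM at 1 nM and 1.65 CPM in untreated cells, a change with dose of 2.13 ± 0.55 (adjusted p = 0.031). Hes6, a Hes relative that does not act as the classical repressors do, fell with dose by 0.70 on the log2 scale (SE 0.20, adjusted p = 0.042).

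Against untreated cells, 3 of the 64 genes were higher and 1 lower at 500 nM, or 6.25% beside 6.28% of all genes, and none passed at 1 nM, where edgeR called 0.0742% of all genes. The 4 were Il2ra, Cdkn1a, Dtx3l and Gata3, the last of which was lower and was named after its values were seen. Cdkn1a, the gene of the cell cycle inhibitor p21, was at 24.5 to 103 CPM at 500 nM, 12.8 to 26.6 CPM at 1 nM and 1.84 CPM in untreated cells, a difference at 500 nM of 4.75 ± 0.59 (adjusted p = 0.0052 in edgeR). Between IL-15 and IL-2 none of the 64 passed.

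Dtx1 was also set beside genes of T cell anergy, the list in which it is best known. Of the 14 others on that list, 2 fell and 0 rose with dose, in a comparison that called 16.1% of all genes, so the count is near the background. The 2 were Dgka and Dgkz, genes of the diacylglycerol kinases that dampen T cell receptor signals. With dose at 24 h, 40.0% of the list, Dtx1 included, was called beside 31.2% of all genes. Dgkz stood at 149 and 132 CPM at 500 nM for 24 h, 77.5 and 98.4 CPM at 500 nM for 4 h, 315.5 and 237 CPM at 1 nM for 24 h, 185 CPM in both libraries of 1 nM at 4 h, and 322 CPM in untreated cells. It fell with dose by 1.02 on the log2 scale (SE 0.17, adjusted p = 0.0054 in edgeR), and, as for Dtx1, the untreated level was the highest, though only slightly above 1 nM IL-15 at 24 h. Dgka fell with dose at 24 h by 1.52 (SE 0.19, adjusted p = 0.00011), and was at 342 and 312 CPM at 500 nM for 24 h, against 1070 and 815 CPM at 1 nM for 24 h, with 840 CPM in untreated cells. Egr2 and Nr4a1, both genes of factors tied to unresponsive T cells, were lower at 24 h than at 4 h, by -1.98 ± 0.29 and -2.55 ± 0.17 (adjusted p = 0.011 and 0.0010), and neither passed with dose. Nfatc2 was higher at 24 h, by 1.17 ± 0.24 (adjusted p = 0.032).

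Genes of naive T cells, many of them targets of FOXO1, all fell with dose at 24 h. All 13 passed, in a comparison that called 31.2% of all genes, 15.6% of all genes as lower. Their median log2 change was -1.77 beside the -1.85 of Dtx1 and -0.04 over all genes. At 4 h, 8 of 13 fell and 0 rose, or 61.5% called beside 10.1% of all genes, with a median of -1.03, where Dtx1 did not pass. Il7r, the IL-7 receptor gene, stood at 28.2 and 29.1 CPM at 500 nM for 24 h, against 543 and 475 CPM at 1 nM for 24 h, with 146 CPM in untreated cells. Tcf7 stood at 352 and 331 CPM at 500 nM for 24 h, against 2046 and 1581 CPM at 1 nM for 24 h, with 1912 CPM in untreated cells. Unlike Dtx1, neither was far below its untreated level at 1 nM. Against untreated cells, 4 of the 13 were lower at 500 nM, or 30.8% beside 6.28% of all genes. At 1 nM none passed, where 0.0742% of all genes did, with a median of 0.40, while Dtx1 had a difference of -3.32.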

How the data were processed

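RNA was sequenced in 9 libraries, each a pool of 3 samples. Per the submitters' processing notes, reads were called with CASAVA 1.8 and aligned with Bowtie 0.12.4 to mm8. The authors' deposited tables give raw counts for 24373 RefSeq transcripts and RPKM, which the authors made from the same counts, exon length and a library total. The use of strand and of reads with several matches is not stated in these sources. Only counts were tested, with the most read transcript of each symbol. R 4.3.3 and edgeR 4.0.16 were used (filterByExpr with a minimum of 10, TMM, quasi-likelihood with legacy deviances) with cytokine, dose, time and untreated terms, which left 4 residual degrees of freedom. Dose by time, cytokine by dose and cytokine by time were each added alone, leaving 3. Dose at each time came from the fit with the dose by time term. A call is a Benjamini-Hochberg adjusted p under 0.05 over 13479 genes, with no adjustment across the 12 comparisons. SE is the log2 change over the root of its F value. The pipeline was tested on simulated counts in which only dose, time or cytokine changed. That does not bear on the dose by time, single-time or untreated comparisons. Named genes were the 6, up to 6 per list by largest called change for dose or time, and those most alike by Pearson's r. Not every gene this picks is reported here. Of the genes named outside this rule, only some are marked as named after their values were seen. Those not marked include C1qa, Cd8b1, Dtx2, Dtx3, Dtx4, Itch, Aak1, Dvl1, Hes5, Hey1 and Pax5. The members, the lists and the rule were chosen with earlier results of these data known. Sequences are RefSeq's (GRCm38.p6), while the deposited coordinates are of mm8 and were not printed. Alternatives were DESeq2 1.42.0, limma-voom 3.58.1, other scalings, filters, models, transcripts, and leaving out libraries.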

Additional observations from a re-analysis of the deposited data

Results flagged for a closer look

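The change with dose differed between the 2 times for Dtx1 and Notch1, by the test of the dose by time term in edgeR over all 9 libraries. For Dtx1 the difference was -1.31 on the log2 scale (adjusted p = 0.022), its level being 20.65 CPM on average at 500 nM and 74.8 CPM at 1 nM at 24 h, and 25.4 and 36.4 CPM at 4 h. For Notch1 it was -1.02 (adjusted p = 0.024), its level being 168 CPM on average at 500 nM and 140 CPM at 1 nM at 24 h, and 462 and 189 CPM at 4 h. Each average is of 2 libraries, 1 per cytokine. The dose by time term called 8.81% of all genes. With 1 treated library left out, the call was kept in 2 of 8 fits for Dtx1 and 1 of 8 for Notch1.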

How the results depend on the processing

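No paired analysis was possible because every condition has 1 library, so the replicate numbers give nothing to block on; matching by cytokine, dose and time is part of the model. Of the results on single genes, the fall of Dtx1 with dose at 24 h, the rise of Notch1 with dose at 4 h and the 3 rises of Rbpj with dose kept their direction and passed under each of their alternatives: 16 for the first, with log2 changes of -2.03 to -1.63, 16 for the second, with 1.23 to 1.35, and 19 for Rbpj over both times, with 1.05 to 1.21. Dtx1 over both times passed under 13 of 19 (-1.49 to -0.52), Notch1 over both times under 12 of 19 (with upper-quartile scaling 0.71, adjusted p = 0.063), and Rbpj at 4 h against untreated, which did not pass, passed under 5 of 18, DESeq2 and limma-voom among them.

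Counts of called genes moved more. For dose, 2170 genes were called, and 3465 with DESeq2, 4325 with a dose by time term, 4621 with all 3 interactions, and 927 to 2435 when 1 treated library was left out. For time the count was 715, with DESeq2 2095, limma-voom 1175, the dose by time term 3045, all 3 interactions 3500, without both 1 nM libraries of 24 h 3715 (an alternative chosen after seeing the data), and 82 to 1328 with 1 library left out. For the cytokines it was 0, with DESeq2 2 and all 3 interactions 3. At 1 nM against untreated it was 10, with median-of-ratios scaling 20, no filter 16, DESeq2 546, limma-voom 98, the dose by time term 589, all 3 interactions 973, without both 1 nM libraries of 24 h 725, and 1 to 20 with 1 library left out. At 500 nM against untreated it was 847, with DESeq2 2271, the dose by time term 2916, all 3 interactions 3367, without both libraries 3153, and 397 to 1064. At 4 h against untreated it was 327, with DESeq2 1334, limma-voom 635, the dose by time term 1667, all 3 interactions 2146, without both libraries 1841, and 48 to 328. At 24 h against untreated it was 46, with DESeq2 1025, limma-voom 229, the dose by time term 1438, all 3 interactions 2045, without both libraries 2380, and 25 to 202. For dose by time it was 1188, with DESeq2 1792 and 356 to 1102, for dose at 4 h 1355 and 567 to 1561, for dose at 24 h 4207 and 2086 to 4384, and for cytokine by dose 0 and with DESeq2 3. Without both 1 nM libraries of 24 h, no 1 nM library at 24 h is left, and the fit takes that level from its other terms. The cause of these moves in the counts was not tested. Fits with added terms have fewer residual degrees of freedom per gene. The edgeR test also borrows scatter across genes, which gave 5.21 to 9.21 degrees of freedom in total in the fit without added terms.

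The limits are depth and replication. Hes1 and Notch3 have few reads, so that only large differences among treated libraries exceed counting error, no condition was repeated, and a single untreated library stands behind each comparison with untreated cells.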
